A study of Mus musculus with 16 samples.

Results

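The comparison asked what a krill extract in the feed changed in the livers of mice on a high-fat diet. It set 4 mice whose high-fat diet held 1% WEPAK, an extract of Pacific krill that dissolves in water, against 4 mice fed that high-fat diet (45% fat) alone. The 8 livers were chosen by their feeding labels and are 8 of the 16 in the study. All 8 came from male C57BL/6J mice, labelled as 4 weeks of age, that ate their diet for 18 weeks. Below, HFW stands for the extract-fed mice 34, 36, 38 and 40, and HF for mice 23, 25, 28 and 29 on the high-fat diet alone. Values listed by mouse follow that order. The other 8 mice ate a normal diet (10% fat), 4 without the extract (N) and 4 with 1% of it (NW), and served to set the extract's differences on both diets side by side.

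Liver hepatocytes burn fatty acids in mitochondria and peroxisomes and store the surplus as triglyceride. They also make most of the proteins of blood plasma, which enter the endoplasmic reticulum (ER), travel in coated vesicles to the Golgi and leave by secretion. Proteins that belong in the ER are fetched back from the Golgi by receptors such as Kdelr1. Feeding on a high-fat diet is a standard way to load mouse liver with fat, and marine lipids and proteins are studied as additions to such diets.

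Transcripts were counted by SuperSAGE, in which NlaIII cuts cDNA at CATG and EcoP15I then releases a tag beside the cut nearest the transcript's 3' end. A gene's count is the number of its tags, so 1 short stretch stands for the whole transcript. The 26 bases expected from the last CATG of the matching GENCODE M21 transcript (GRCm38) are shown for 7 genes that the results turn on, and for 2 whose tags other genes share. Capitals mark the NlaIII site.
Kdelr1: CATGtttttgtacagaatttgatggc
Igfals: CATGgctgctcacttcctggatgcag
Sephs2: CATGaaaaattatttggaccaatata
Lcat: CATGgtcttcagcaataagacactgg
Dus1l: CATGgattgctttttaagaccaaatt
Trfr2: CATGagctacggtatgtgagcagccc
Acox2: CATGaaaggatgttcatcatattatt
Eef1b2: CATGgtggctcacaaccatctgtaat
Sod2: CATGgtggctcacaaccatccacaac

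The Kdelr1 tag lies in the 3' UTR at chr7:45883662-45883687 (plus strand), that of Igfals in the 3' UTR at chr17:24881862-24881887 (plus), and that of Sephs2 in the 3' UTR at chr7:127272199-127272224 (minus). The Lcat tag lies in coding sequence at chr8:105939655-105939680 (minus), as does the Dus1l tag at chr11:120789532-120789557 (minus). The tags of Trfr2 (chr5:137587404-137587429, plus) and Acox2 (chr14:8225623-8225648, minus) lie in 3' UTRs. None of these 7 tags is the last tag of another annotated gene. The Eef1b2 tag (chr1:63180375-63180400, plus, 3' UTR) is also the last tag of 90 other genes. The Sod2 tag (chr17:13020024-13020049, plus, 3' UTR) is that of 1 other gene and shares its first 20 bases with the Eef1b2 tag. Counts of Eef1b2 and Sod2 may therefore hold tags of other transcripts. A tag was found for 99 of the 103 genes called below, and in 81 of the 99 it lay in a 3' UTR. How the deposited table assigned tags is not given in the sources used here.

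Libraries of HF mice were deeper, with 91468 to 149349 tags in named genes against 56655 to 101481 in HFW (means 118882 ± 23746 and 75749 ± 21588, SD, n = 4; exact permutation test, two-sided, p = 0.0571, adjusted over 4 measures 0.114). The 10 most abundant genes held 28.1% ± 1.58 of the tags in HF and 32.3% ± 1.79 in HFW, and every HFW value lay above every HF value (exact permutation p = 0.0286, the smallest that 4 against 4 allows, adjusted 0.114). Over the 500 most variable genes, the first principal component held 44.5% of the variance and separated the 2 groups. HF mice 23 (-14.81) and 25 (-13.55) lay farther from the HFW mice, at 5.255 to 12.51, than HF mice 28 (-2.72) and 29 (-5.00). Hepatocyte markers, 14 of 14 with tags, summed to 63184 to 72550 tags per 1000000 in HF and 60120 to 90854 in HFW. Summed endothelial markers were lower in every HFW mouse (741 to 899 tags per 1000000) than in every HF mouse (940.2 to 1158). A large part of that sum was 1 gene, Oit3, with 303 of 488 tags in HF and 110 of 249 in HFW. The sum without Oit3 was not compared by mouse, so the lower sum is not read here as a fall of these markers as a set. Kdr, another of these markers, had 88 tags in HF and 72 in HFW, and its log2 fold change (HFW minus HF) was 0.43, the opposite sign. Of 13 endothelial markers 2 were at 0, the defining Cdh5 and Lyve1. Kupffer cell and macrophage markers overlapped (649.6 to 1379 and 540.4 to 1378, 6 of 18 at 0, among them Cd68 and Cd5l). Stellate cell and matrix markers overlapped too (656 to 4285 and 945.7 to 4367, 4 of 16 at 0, among them Acta2 and Lrat), and 14 of 16 lymphocyte and neutrophil markers were at 0. The part of depth was tested by thinning, given with the counts. That of cell makeup was not tested, and in whole liver fewer cells of a type and less RNA per cell cannot be told apart.

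Of the 1046 genes with enough tags to be tested, 103 passed an adjusted p of 0.05 between HFW and HF (9.85%, quasi-likelihood test of edgeR, Benjamini-Hochberg adjusted). Of these, 44 rose (4.21%) and 59 fell (5.64%) in HFW. The median log2 fold change (always HFW minus HF) was 1.24 among the genes that rose, -1.48 among those that fell and 0.05 over all genes tested. Among the genes that fell 9 did so by more than 4-fold, and among those that rose 0 did. The median level of the genes that fell was 619 CPM (tags per 1000000 of the normalised library size) in HF and 214 CPM in HFW. Those that rose had 237 and 490.2 CPM, and all genes tested 224 and 227 CPM. All 4 HFW mice lay outside the range of the HF mice for 33 of the 44 and 51 of the 59, as they did, in either direction, for 15.7% of all genes tested (6.79% with HFW higher and 8.89% with HFW lower). A gene with few tags could pass the count filter only through the groups where it was high. For such a gene the lack of overlap is no separate support. With all libraries thinned to 56655 tags, 84 of 780 genes tested passed, 36 higher and 48 lower. Of the 103 calls 76 were kept, and 27 ended or could no longer be tested, 12 higher and 15 lower.

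**Figure D1:**
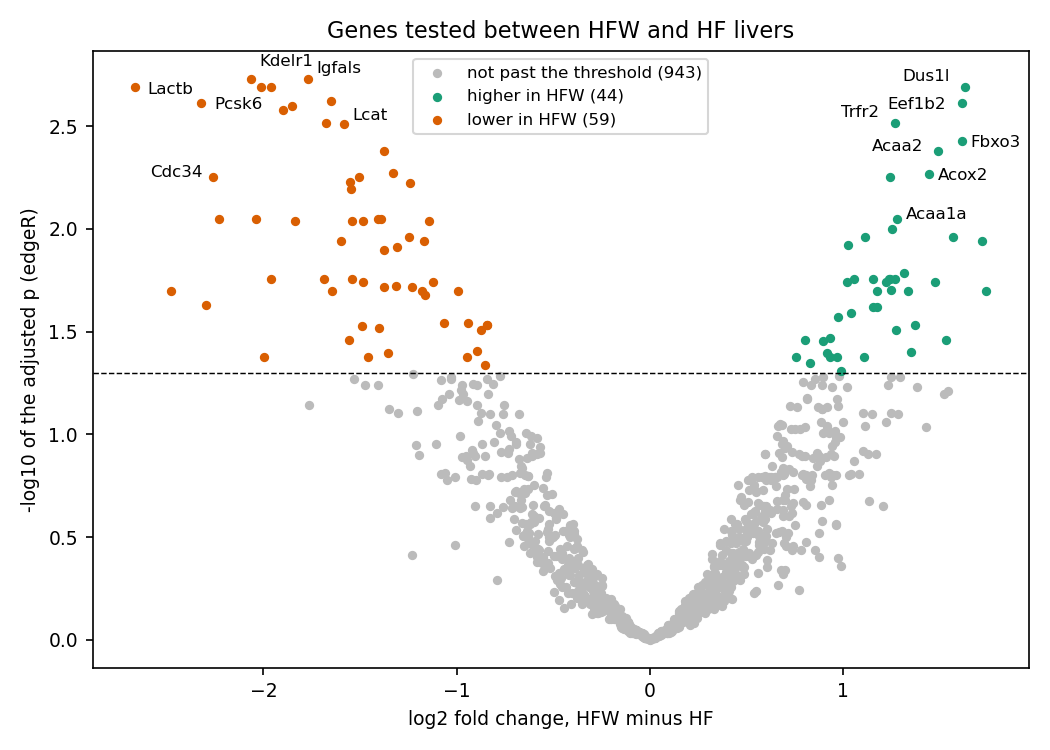
Each point is 1 of the 1046 genes tested, with the log2 fold change (HFW minus HF) on the x axis and -log10 of the edgeR adjusted p on the y axis, and the dashed line marks an adjusted p of 0.05. The 59 lower genes reach further from 0 (Lactb, tested only through libraries without the extract, at -2.66) than the 44 higher genes.

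The calls rested on the libraries to different degrees. In 8 fits that each left out 1 of the 8 mice, 32 of the 103 calls held every time, 8 higher and 24 lower. Without HF mouse 25, 40 of the 103 calls were kept and no other gene was called. Without HF mouse 23, 51 were kept, and without HFW mouse 38 or 40, 57 and 58. Without HF mouse 28, 100 were kept and 150 genes were called. No called gene changed direction in any of these fits or in the 8 other settings tried. When no genes were filtered out, the median fold change of the 1046 genes was lower by 0.22 (log2; median shift -0.22), and 106 genes passed, 11 higher and 95 lower. Of the 44 higher calls 35 ended there, against 1 of the 59 lower calls. The 9 higher genes that kept theirs included Dus1l, Eef1b2, Trfr2, Acaa2, Acox2, Acaa1a, Slc25a5 and Gc. Every other higher call named below ended with no filter, which is not repeated beside each gene. Below, the libraries without which a call ended, or a gene just short of the threshold passed, are given beside each gene with the value then obtained. A called gene with none named kept its call in all 8.

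**Figure D2:**
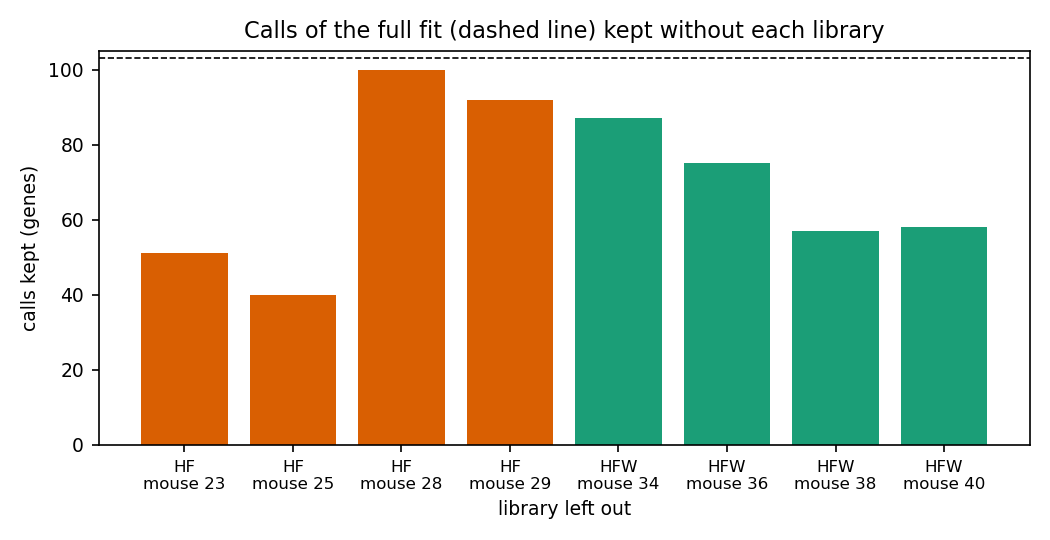
Bars give, for each library left out (x axis), how many of the 103 calls of the full fit (dashed line) were kept (y axis, genes). The lowest bars are HF mouse 25 with 40 and HF mouse 23 with 51, and the highest is HF mouse 28 with 100.

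Calls of the early secretory pathway went in both directions. Kdelr1, the receptor that returns escaped ER proteins from the Golgi, had 3558, 2704, 1662 and 1856 CPM in the HF mice and 824, 542, 596 and 376 CPM in the HFW mice. Every HFW mouse was below every HF mouse, and the log2 fold change was -2.06 (SE 0.36, adjusted p = 0.00186). Sec24c, which picks cargo for the COPII coat of vesicles leaving the ER, had 3095, 3648, 1744 and 1933 CPM in the HF mice and 1357, 1206, 1062 and 789 CPM in the HFW mice. Its groups did not overlap either, and it fell by 1.24 on the log2 scale (SE 0.29, adjusted p = 0.00601). Sar1a, the GTPase that starts the same coat, rose instead, from 142 ± 58.2 CPM in HF to 336 ± 44.9 CPM in HFW, at 1.27 (SE 0.39, adjusted p = 0.031). That call ended without HF mice 25 or 29 or HFW mice 34, 38 or 40 (1.05 to 1.27, adjusted p 0.0581 to 0.15). Copa, a subunit of the COPI coat that carries material back to the ER, fell from 1103 ± 322 CPM in HF to 589 ± 209.7 CPM in HFW, -0.90 (SE 0.28, adjusted p = 0.0391), with a call that ended without HF mice 23, 25 or 29 or HFW mice 36, 38 or 40 (-0.76 to -0.92, adjusted p 0.0513 to 0.129). Sec22c, a Sec22-family protein of ER to Golgi traffic, had -1.38 (SE 0.39, adjusted p = 0.0193) and lost its call without HF mouse 25 or HFW mouse 40 (-1.24 to -1.34, adjusted p 0.0654 to 0.0752) and on thinning (-1.21, adjusted p = 0.0761).

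Over the list of Golgi and vesicle traffic, 9 genes were tested, 2 rose and 2 fell, with a median of -0.25 against 0.05 over all genes. Over all genes tested 9.85% were called, the share to set beside this and each list below. The other gene that rose there was Rab5c, the GTPase of early endosomes, at 1.74 (SE 0.49, adjusted p = 0.02). It had 10.5, 37.5, 49.1 and 67.8 CPM in the HF mice and 151, 157, 168 and 113 CPM in the HFW mice. No HF or N library held more than 8 Rab5c tags, so the gene was tested only through extract-fed libraries. The gap between the groups is therefore no separate support. Its call ended without HF mice 23 or 25 or HFW mouse 38 (1.47 to 1.68, adjusted p 0.0702 to 0.099). Yipf2, a Golgi membrane protein outside that list, fell by 2.04 on the log2 scale (SE 0.49, adjusted p = 0.00891), and its call ended without HFW mouse 40 (-1.63, adjusted p = 0.0517). No HFW or NW library held more than 4 Yipf2 tags, so it was tested only through libraries without the extract. Rab5c and Yipf2 had too few tags to be tested on thinning or with a filter of 20 counts.

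At the entry to the ER, Sec61a1, the channel through which new proteins pass, had 305, 294, 237 and 169.5 CPM in the HF mice and 476, 437, 615 and 648 CPM in the HFW mice. Each HFW mouse exceeded each HF mouse, with a log2 fold change of 1.11 (SE 0.28, adjusted p = 0.0109), and the call ended without HFW mouse 40 (0.97, adjusted p = 0.0548). It was the 1 called gene among 7 tested of the translocon list, whose median was 0.37. Kdelr1 was the 1 called gene among 8 tested genes of ER folding, stress and retrieval, whose median was -0.03. Herpud1, an ER stress-induced protein of that list, had 0.69 (SE 0.32, adjusted p = 0.157) and Calr, an ER chaperone, 0.70 (SE 0.36, adjusted p = 0.208), and neither passed. Outside these lists, 2 ER membrane proteins fell. Tmem66, a brake on store-operated calcium entry, had 4137, 3311, 3972 and 2526 CPM in the HF mice and 1682, 1206, 1490.5 and 939 CPM in the HFW mice, with no overlap and a log2 fold change of -1.39 (SE 0.33, adjusted p = 0.00891). Fam134a, of a family of receptors for ER turnover, held 1.15% to 1.72% of the tags in HF against 0.403% to 0.767% in HFW mice, with -1.12 (SE 0.31, adjusted p = 0.0181). Its call ended without HFW mouse 40 (-0.98, adjusted p = 0.0635).

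**Figure D3:**
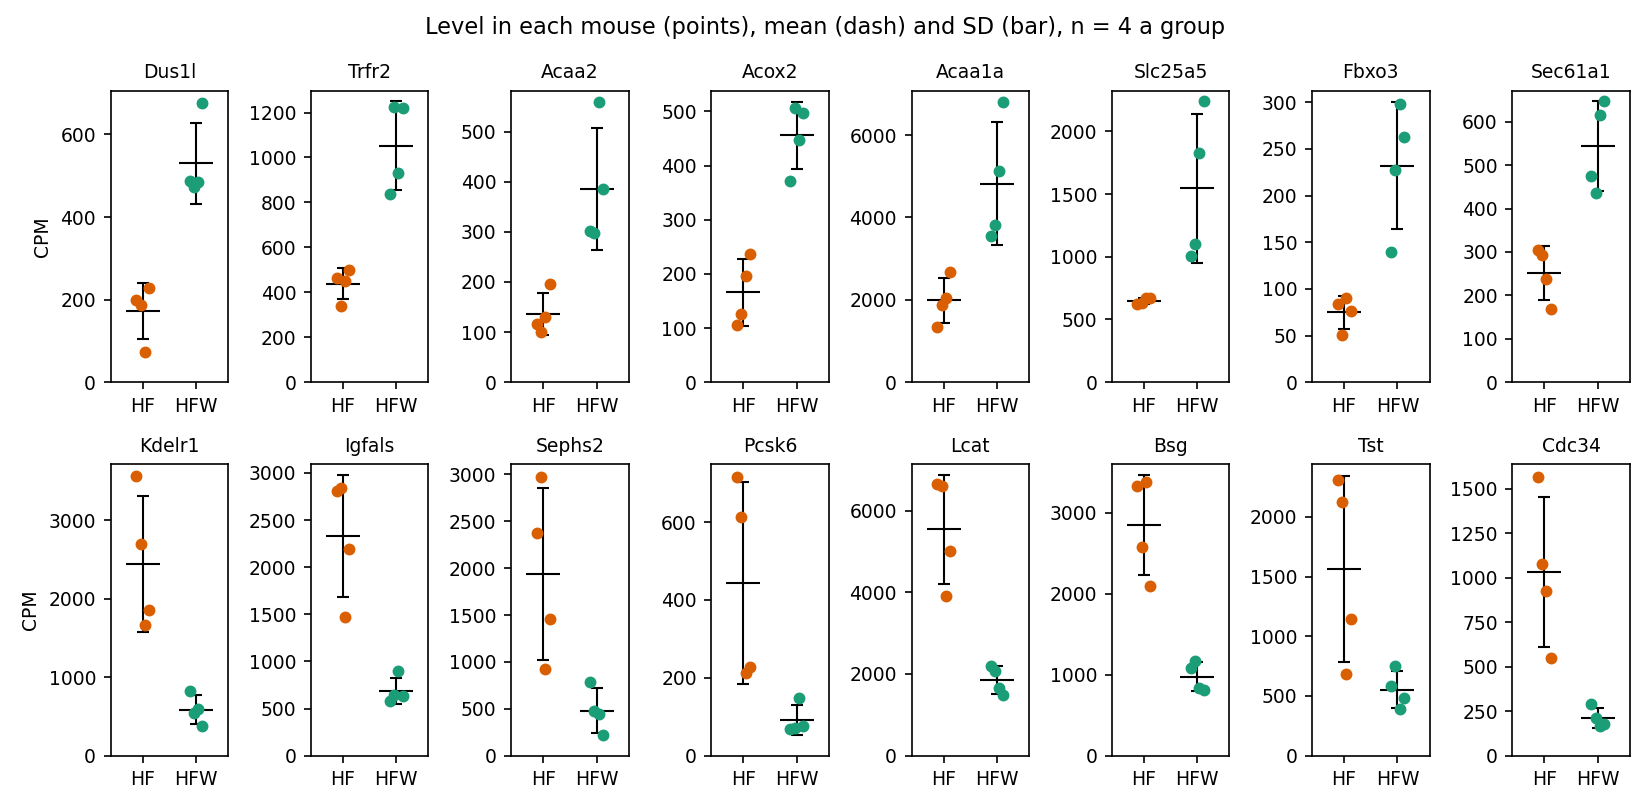
Each panel shows 1 gene, with the level in CPM (y axis, from 0) of each HF and HFW mouse as points, the mean as a dash and the SD as a bar. In the top row HFW mice lie above HF mice and in the bottom row below them, and the groups do not overlap for any of the 16 genes except Tst.

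Liver proteins that act in blood plasma or on its carriers moved both ways. Igfals, the plasma subunit that keeps insulin-like growth factors in circulation, had 2811, 2841, 1474 and 2195 CPM in the HF mice and 580.1, 647, 894 and 629 CPM in the HFW mice. The groups were far apart, and it fell by 1.77 on the log2 scale (SE 0.32, adjusted p = 0.00186). Pcsk6, a convertase that cuts precursors of secreted proteins, had 716, 613, 213 and 229 CPM in the HF mice and 69.6, 69.9, 149 and 75.2 CPM in the HFW mice. All HFW mice were below all HF mice, HF mice 23 and 25 stood well above HF mice 28 and 29, and the log2 fold change was -2.32 (SE 0.46, adjusted p = 0.00244). These 2 were the called genes among 5 tested of the growth hormone and IGF list (median -0.26), and the other 3 did not pass.

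Lcat, the plasma enzyme that esterifies cholesterol on high-density lipoprotein, had 6653, 6589.8, 3898 and 5009.8 CPM in the HF mice and 2193, 2062, 1658 and 1475 CPM in the HFW mice. Its groups did not overlap, with a log2 fold change of -1.58 (SE 0.33, adjusted p = 0.0031). Abca1, the pump that loads cholesterol onto apolipoprotein A-I, had 337, 257, 508 and 721 CPM in the HF mice and 1160.2, 1433, 1006 and 714 CPM in the HFW mice. The groups overlapped through HF mouse 29 and HFW mouse 40, Abca1 rose by 1.24 (SE 0.33, adjusted p = 0.0176), and the call ended without HF mice 23 or 25 or HFW mouse 36 (1.03 to 1.12, adjusted p 0.0563 to 0.0944). The lipoprotein list had 12 tested genes, 1 up and 1 down, and a median of 0.39. Apoc1, a small apolipoprotein, had 2284, 2278, 2023 and 2119 CPM in the HF mice and 1450.3, 1415, 1341 and 1653 CPM in the HFW mice. Its groups did not overlap, yet -0.57 (SE 0.24, adjusted p = 0.115) missed the threshold.

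Trfr2, with which hepatocytes sense iron-loaded transferrin, had 463, 338, 450.4 and 500.1 CPM in the HF mice and 835, 1223, 932 and 1221 CPM in the HFW mice. Every HFW mouse exceeded every HF mouse, a log2 fold change of 1.27 (SE 0.26, adjusted p = 0.00305). Cp, ceruloplasmin, the copper protein that oxidises iron in plasma, rose from 263 ± 71.8 CPM in HF to 621 ± 107 CPM in HFW (1.22, SE 0.34, adjusted p = 0.0181), and its call ended without HF mice 23 or 25 or HFW mice 36 or 38 (1.12 to 1.23, adjusted p up to 0.0651). They were the 2 called genes among 6 tested of the iron list, which had a median of 0.78. Slc39a14, a metal importer of hepatocytes on that list, had 0.80 (SE 0.31, adjusted p = 0.0918) and passed without HFW mouse 34 (1.03, adjusted p = 0.0266). Gc, the plasma carrier of vitamin D, had 3000.4, 2528, 5175 and 6358 CPM in the HF mice and 7367, 10851, 9856 and 9939 CPM in the HFW mice. It rose by 1.16 (SE 0.31, adjusted p = 0.0176), with HFW mice all above HF mice, and the call ended without HF mice 23 or 25 (0.97 to 1.02, adjusted p 0.0715 to 0.0944). With Cp it made 2 called genes of 16 tested among other secreted liver proteins (median 0.33). Of 20 tested genes of complement, coagulation and the acute phase 0 were called, and the median was 0.23, or -0.0047 with no filter on low counts. The smallest p there was that of Itih3, an inter-alpha-inhibitor chain, at 0.90 (SE 0.30, adjusted p = 0.0528), and it passed with the filter of 20 counts and with the 8 libraries fitted alone (0.89, adjusted p 0.0407 to 0.0485).

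In fatty acid oxidation 3 genes rose and 1 fell. Acaa2, the mitochondrial thiolase that makes the last cut of each beta-oxidation round, had 116, 100.1, 131 and 195 CPM in the HF mice and 302, 297, 559 and 385 CPM in the HFW mice. No HFW mouse overlapped the HF mice, a log2 fold change of 1.49 (SE 0.33, adjusted p = 0.00417). Acaa1a, the peroxisomal thiolase, had 1348, 1865, 2055 and 2687 CPM in the HF mice and 3539, 3827, 5124 and 6811 CPM in the HFW mice, again with no overlap, at 1.28 (SE 0.31, adjusted p = 0.00891). Etfa, a subunit of the flavoprotein that passes electrons from acyl-CoA dehydrogenases to the respiratory chain, rose by 1.02 (SE 0.28, adjusted p = 0.0181), and its call ended without HF mice 23 or 25 or HFW mouse 38 (0.81 to 1.01, adjusted p 0.0547 to 0.103). In all, 18 of the list's 32 genes could be tested, 9 values were above 0 and 9 below, and the median was -0.12.

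The calls also held Acox2 and Lonp2, of peroxisomes, for which no list was drawn up. Acox2, a peroxisomal oxidase for branched fatty acids and the side chains of bile acid precursors, had 105, 125, 197 and 237 CPM in the HF mice and 371, 507, 447 and 498 CPM in the HFW mice. The groups did not overlap, with 1.44 (SE 0.32, adjusted p = 0.00539). Lonp2, the protease of the peroxisomal matrix, had 884, 807, 1220.2 and 1322 CPM in the HF mice and 1543, 2499, 2627 and 1982 CPM in the HFW mice, with no overlap and 1.03 (SE 0.26, adjusted p = 0.012). Its call ended without HF mice 23 or 25 or HFW mouse 38 (0.90 to 0.94, adjusted p 0.0543 to 0.0665). In the bile acid list of 6 tested genes, Acox2 was the 1 that rose. Slc10a1, the sodium-dependent importer of bile acids from blood, fell (-0.95, SE 0.30, adjusted p = 0.0419), with groups that overlapped and a call that ended without HF mice 23 or 25 or HFW mice 34, 36 or 38 (-0.73 to -1.01, adjusted p 0.0583 to 0.16). That call also ended with limma-voom and with the 8 libraries fitted alone.

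Among genes that store and release fat, Mgll, the lipase of monoglycerides, rose from 115 ± 41.7 CPM in HF to 280.0 ± 56.4 CPM in HFW (1.31, SE 0.35, adjusted p = 0.0163), and its call ended without HF mouse 25 or HFW mouse 40 (1.13 to 1.16, adjusted p 0.0683 to 0.093). With the filter of 20 counts it was not tested. It was the 1 called of 8 tested of the lipid droplet list. Fitm1, a protein of lipid droplet formation, had -0.87 (SE 0.32, adjusted p = 0.0787) and Hsd17b13, a lipid droplet protein, 0.56 (SE 0.27, adjusted p = 0.161). Neither passed, though the groups of both did not overlap, and Fitm1 did with no filter and with the 8 libraries fitted alone (-0.88 to -1.12, adjusted p 0.00804 to 0.0224). Of 9 tested genes of fatty acid and triglyceride synthesis 0 were called, with a median of 0.29. Thrsp, a lipogenic regulator, had 421, 426, 712 and 492 CPM in the HF mice and 719, 1433, 1248 and 2104 CPM in the HFW mice. All HFW mice were above all HF mice, and 1.43 (SE 0.52, adjusted p = 0.0918) missed the threshold. It passed with no filter, with the DESeq2 Wald test and with the 8 libraries fitted alone (1.19 to 1.42, adjusted p 0.00508 to 0.0297). Dgat2, which adds the last fatty acid to triglyceride, had 0.71 (SE 0.30, adjusted p = 0.114) and passed without HF mouse 29 (0.94, adjusted p = 0.0493). Acly, which makes cytosolic acetyl-CoA, had -0.74 (SE 0.35, adjusted p = 0.161).

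Phospholipid and sphingolipid enzymes outside the lists changed too. Etnk2, an ethanolamine kinase at the start of phosphatidylethanolamine synthesis, had 3589.9, 3311, 2440.3 and 3374 CPM in the HF mice and 1462, 1887, 1025 and 1381 CPM in the HFW mice. The HFW mice were the 4 lowest, with -1.14 (SE 0.28, adjusted p = 0.00911). Ptdss1, a phosphatidylserine synthase, rose by 1.04 (SE 0.31, adjusted p = 0.0256), and that call ended without HF mice 23 or 25 or HFW mice 38 or 40 (0.84 to 1.00, adjusted p 0.074 to 0.128). Smpd1, the lysosomal sphingomyelinase, fell from 405 ± 204 CPM in HF to 103 ± 83.4 CPM in HFW (-1.96, SE 0.51, adjusted p = 0.0176), with a call that ended without HF mice 23 or 25 or HFW mouse 40 (-1.64 to -1.76, adjusted p 0.0584 to 0.0909) and on thinning. Ebpl, a relative of a sterol isomerase, had 1326, 1245, 1654 and 1187 CPM in the HF mice and 649.7, 647, 652 and 469.7 CPM in the HFW mice, with no overlap and -1.17 (SE 0.30, adjusted p = 0.0114).

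**Figure D4:**
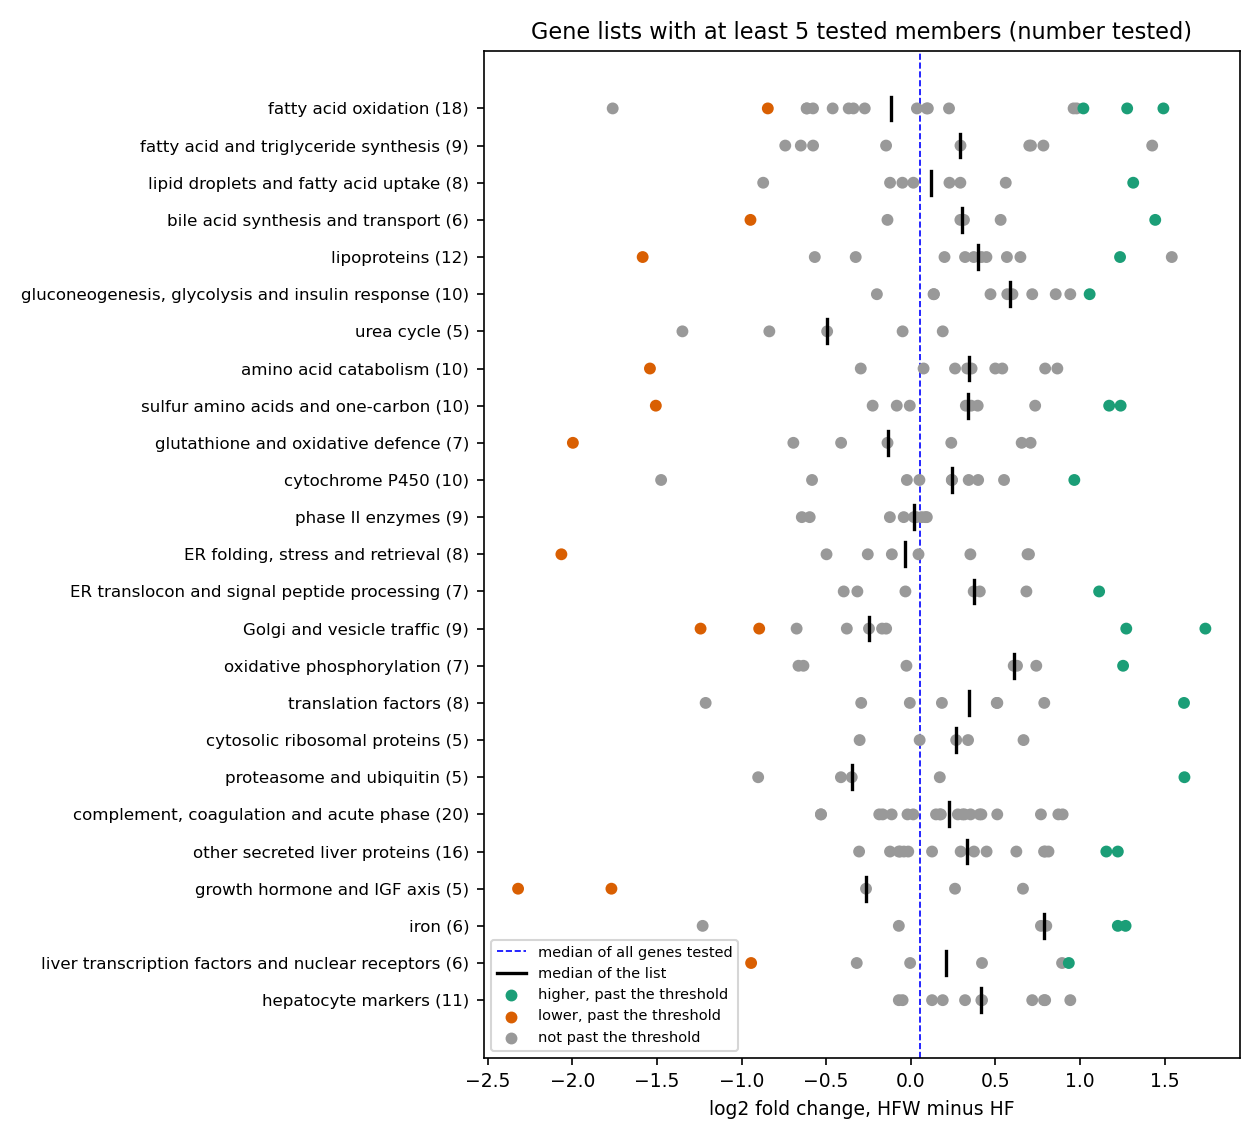
Each row is a gene list with at least 5 tested members, each point a member at its log2 fold change (x axis, HFW minus HF), coloured by whether it passed the threshold. Black ticks mark the list medians and the dashed line the median of all genes tested, 0.05. Most lists hold 1 or 2 coloured points among grey ones.

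Calls in amino acid and sulfur metabolism went in both directions too. Abat, which breaks down the amino acid GABA, had 2832, 3367, 1515 and 2552 CPM in the HF mice and 998, 891, 783 and 1249 CPM in the HFW mice. No HFW mouse reached the HF range, and it fell by 1.38 on the log2 scale (SE 0.30, adjusted p = 0.00417). Tst, a mitochondrial rhodanese that handles sulfide and cyanide, had 2306, 2128, 679.7 and 1144 CPM in the HF mice and 580.1, 751, 391 and 479 CPM in the HFW mice. HF mouse 28 lay within the HFW range, and the log2 fold change was -1.51 (SE 0.34, adjusted p = 0.00556). Cbs, which makes cystathionine from homocysteine, rose from 248 ± 82.1 CPM in HF to 572 ± 248 CPM in HFW (1.24, SE 0.34, adjusted p = 0.0176), and its call ended without HF mouse 25 or HFW mouse 40 (1.00 to 1.24, adjusted p 0.0602 to 0.0909). Shmt2, a mitochondrial enzyme that moves 1-carbon units from serine, rose from 1049 ± 413 CPM in HF to 2366 ± 444 CPM in HFW (1.17, SE 0.33, adjusted p = 0.02), with a call that ended without HF mice 23 or 25 or HFW mouse 36 (1.03 to 1.10, adjusted p 0.0608 to 0.102).

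The sulfur amino acid and one-carbon list had 10 tested genes, 2 up and 1 down (median 0.34). The amino acid catabolism list had 10, 0 up and 1 down (median 0.35). Agxt, which clears glyoxylate, had 0.79 (SE 0.27, adjusted p = 0.0553) there and passed with the filter of 20 counts, with the DESeq2 Wald test and without HF mouse 29 (0.76 to 1.00, adjusted p 0.0239 to 0.0479). Of 5 tested urea cycle genes 0 were called and the median was -0.49. Arg1, the arginase of that cycle, had 5011, 3779.9, 1859 and 3001 CPM in the HF mice and 1949, 1660.0, 1658 and 2349 CPM in the HFW mice. HF mouse 28 lay within the HFW range, and -0.84 (SE 0.30, adjusted p = 0.0639) missed the threshold, which it passed with no filter and without HF mouse 28 (-1.05 to -1.06, adjusted p 0.011 to 0.0193).

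Sephs2, which makes the selenium donor for selenoproteins, had 2379, 2973, 925 and 1458 CPM in the HF mice and 789, 472, 447 and 216 CPM in the HFW mice. All HFW mice were below all HF mice, and the log2 fold change was -2.01 (SE 0.37, adjusted p = 0.00204). Among the 3 other tested genes of selenium metabolism, the peroxidase Gpx1 had -0.69 (SE 0.28, adjusted p = 0.109) and Gpx4, which reduces lipid peroxides, 0.24 (SE 0.27, adjusted p = 0.603). None of the 3 passed, and Gpx1 did with no filter and without HF mouse 28 (-0.94 to -0.95, adjusted p 0.0212 to 0.0383). Gpx4 was one of the most abundant transcripts, with 36952 to 56832 CPM in HF and 28775 to 78903 CPM in HFW, and its HFW range enclosed its HF range. With no filter its log2 fold change turned to -0.01. Sod2, mitochondrial superoxide dismutase, had -2.00 (SE 0.59, adjusted p = 0.0422), with the shared tag described above. Its call ended without HF mice 23 or 25 or HFW mice 34, 36, 38 or 40 (-1.53 to -2.34, adjusted p 0.0672 to 0.147), and on thinning. It was the 1 called gene of 7 tested for glutathione and oxidative defence.

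Glucose and drug metabolism added single genes. In the list of gluconeogenesis, glycolysis and insulin response 1 of 10 tested genes was called, Fbp1, the phosphatase of gluconeogenesis, at 1.06 (SE 0.29, adjusted p = 0.0175), and the call ended without HF mouse 23 or HFW mice 38 or 40 (0.81 to 0.98, adjusted p 0.0618 to 0.0923). The list's median was 0.59 and 9 of 10 values were above 0, as were 552 of 1046 over all genes tested. Of 10 tested cytochrome P450 genes 1 was called, Cyp2d10 (0.97, SE 0.31, adjusted p = 0.0422), whose call ended without HF mice 23, 25 or 29 or HFW mice 38 or 40 (0.83 to 1.05, adjusted p 0.0684 to 0.154). That call also ended with no filter (0.73, adjusted p = 0.521), DESeq2 size factors, the DESeq2 Wald test, limma-voom and thinning. Cyp2c29, of the same family, had -1.48 (SE 0.49, adjusted p = 0.0575) and passed with no filter, with the DESeq2 Wald test, without HF mouse 28 and without HFW mouse 36 (-1.53 to -1.82, adjusted p 4.71e-05 to 0.0476). Of 9 tested phase II enzymes 0 were called, with Gstp1 at -0.64 (SE 0.33, adjusted p = 0.194).

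Mitochondrial genes were called both ways. Slc25a5, an ADP/ATP carrier of the inner membrane, had 621, 632, 671 and 669.7 CPM in the HF mice and 1009, 1101, 1826 and 2245 CPM in the HFW mice. The HF mice were close to each other and all HFW mice lay above them, with 1.25 (SE 0.31, adjusted p = 0.00996), and the call ended without HFW mouse 40 (0.97, adjusted p = 0.0635). It was the 1 called gene of 7 tested for oxidative phosphorylation, whose median was 0.61. Mrps14, a protein of the small mitochondrial ribosomal subunit, had 1095, 989, 1466 and 958 CPM in the HF mice and 394, 507, 522 and 385 CPM in the HFW mice. Every HFW mouse was below every HF mouse, and it fell by 1.33 on the log2 scale (SE 0.30, adjusted p = 0.00533). Lactb, a filament-forming mitochondrial protein, had 526, 313, 172 and 178 CPM in the HF mice and 23.2, 69.9, 0.00 and 75.2 CPM in the HFW mice. HFW mouse 38 had no Lactb tag, and the log2 fold change of -2.66 (SE 0.51, adjusted p = 0.00204) was the largest of all calls. With at most 8 tags in any HFW or NW library, Lactb was tested only through libraries without the extract. The gap between its groups is therefore no separate support. Nipsnap3b had 1516, 1364, 712 and 695 CPM in the HF mice and 476, 472, 186 and 207 CPM in the HFW mice, with no overlap and -1.68 (SE 0.35, adjusted p = 0.00305).

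Fumarate metabolism and mitochondrial RNA gave 2 more falls. Tbrg4, a regulator of mitochondrial RNA, had 368, 388, 270.2 and 237 CPM in the HF mice and 151, 122, 93.2 and 103 CPM in the HFW mice, with -1.41 (SE 0.34, adjusted p = 0.00891). Fh1, the fumarate hydratase of the tricarboxylic acid cycle, had 189, 275, 180.2 and 186 CPM in the HF mice and 104, 34.9, 55.9 and 65.8 CPM in the HFW mice. The groups did not overlap, with -1.60 (SE 0.41, adjusted p = 0.0114), and the call ended without HF mouse 25 (-1.43, adjusted p = 0.0665) and on thinning. Lars2, the mitochondrial leucyl-tRNA synthetase, held 3.26% to 7.50% of the tags in HF and 5.31% to 7.71% in HFW, and 0.46 (SE 0.28, adjusted p = 0.29) did not pass.

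Dus1l, which modifies uridine in transfer RNA, had 200.0, 188, 73.7 and 229 CPM in the HF mice and 487, 472, 484 and 676 CPM in the HFW mice. The HFW mice were all above the HF mice, HF mouse 28 was the lowest of all, and the log2 fold change was 1.63 (SE 0.31, adjusted p = 0.00204). Eef1b2, the exchange factor of the elongation factor that brings transfer RNA to the ribosome, had 105, 113, 139 and 144 CPM in the HF mice and 429, 419, 447 and 272 CPM in the HFW mice. The groups did not overlap, with 1.61 (SE 0.32, adjusted p = 0.00244), for a tag that 90 other genes share. It was the 1 called of 8 tested translation factors (median 0.35). Of 5 tested cytosolic ribosomal proteins 0 were called (median 0.27).

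Genes of protein tagging and removal came in both directions. Cdc34, an enzyme that hands ubiquitin to ligases, had 1569, 1076, 925 and 551 CPM in the HF mice and 290.1, 209.7, 168 and 178 CPM in the HFW mice. The highest HFW mouse was below the lowest HF mouse, and the log2 fold change was -2.26 (SE 0.48, adjusted p = 0.00556). Fbxo3, a substrate adaptor of a ubiquitin ligase, had 84.2, 50.1, 90.1 and 76.3 CPM in the HF mice and 139, 227, 298 and 263 CPM in the HFW mice, with no overlap and 1.62 (SE 0.35, adjusted p = 0.00374). Its call held without each mouse but ended with no filter (1.38, adjusted p = 0.0518). Cops5, the subunit that strips NEDD8 from cullins, had 21.1, 56.3, 106 and 127 CPM in the HF mice and 336, 279.6, 130.4 and 188 CPM in the HFW mice. Its groups did not overlap, with 1.57 (SE 0.40, adjusted p = 0.0109), and the call ended without HF mouse 25 (1.42, adjusted p = 0.0567) and on thinning. Bag4, a co-chaperone of Hsp70, had 674, 519, 287 and 534 CPM in the HF mice and 244, 139.8, 149 and 103 CPM in the HFW mice, with all HFW mice below all HF mice at -1.65 (SE 0.33, adjusted p = 0.00239). Of the 5 tested genes of the proteasome and ubiquitin list Fbxo3 was the 1 called.

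Several other receptors and membrane proteins fell. Bsg, basigin, the partner that brings lactate transporters to the cell surface, had 3337, 2585, 3382 and 2102 CPM in the HF mice and 1079, 1171, 838 and 808 CPM in the HFW mice. The groups did not overlap, and the log2 fold change was -1.55 (SE 0.35, adjusted p = 0.0059). Ltbr, the lymphotoxin beta receptor, had 1537, 1170.3, 1114 and 678 CPM in the HF mice and 348, 209.7, 335 and 348 CPM in the HFW mice, again with no overlap, at -1.84 (SE 0.43, adjusted p = 0.00911). Jup, plakoglobin, a protein of cell junctions, had 305, 244, 295 and 203 CPM in the HF mice and 69.6, 139.8, 130.4 and 93.9 CPM in the HFW mice. The 4 HFW values were the lowest, with -1.31 (SE 0.34, adjusted p = 0.0123). Cmtm4, a membrane protein of the MARVEL family, had 284, 257, 237 and 195 CPM in the HF mice and 92.8, 69.9, 55.9 and 47.0 CPM in the HFW mice and fell by 1.85 on the log2 scale (SE 0.38, adjusted p = 0.00253). With at most 8 tags in any HFW or NW library, Cmtm4 was tested only through libraries without the extract. The gap between its groups is no separate support. Zdhhc9, which attaches palmitate to proteins, had 337, 244, 164 and 297 CPM in the HF mice and 69.6, 139.8, 55.9 and 28.2 CPM in the HFW mice, with no overlap and -1.90 (SE 0.39, adjusted p = 0.00263).

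Il6st and Lifr, receptor chains for interleukin 6-family cytokines, both fell. Il6st, the shared gp130 chain, went from 776 ± 226 CPM in HF to 364 ± 108 CPM in HFW (-1.07, SE 0.32, adjusted p = 0.0287), and its call ended without HF mice 23 or 25 or HFW mice 36 or 38 (-0.91 to -1.11, adjusted p 0.0703 to 0.134). Lifr, the receptor of leukemia inhibitory factor that pairs with it, went from 1442 ± 259 CPM in HF to 781 ± 177 CPM in HFW (-0.87, SE 0.27, adjusted p = 0.031), with a call that ended without HF mice 23 or 25 or HFW mice 36 or 38 (-0.75 to -0.92, adjusted p up to 0.128) and on thinning. S1pr1, a receptor of sphingosine 1-phosphate known from endothelial cells, had 769, 626, 319 and 348 CPM in the HF mice and 162, 192, 205 and 225 CPM in the HFW mice. It fell with no overlap (-1.38, SE 0.36, adjusted p = 0.0127), and the call ended without HF mice 23 or 25 (-1.16 to -1.27, adjusted p 0.0602 to 0.0618). Of the 2 tested endothelial markers, Oit3 had -0.73 and Kdr 0.43, and neither was called. The lower sum of all these markers in HFW rested in large part on Oit3, with 303 of 488 tags in HF and 110 of 249 in HFW. That sum is therefore not set beside S1pr1 here. The part of endothelial cells in the S1pr1 result was not tested.

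A pair of genes for which no role is given here were among the clear falls. Ccdc107 had 368, 357, 344 and 254 CPM in the HF mice and 58.0, 87.4, 55.9 and 122 CPM in the HFW mice, with -1.96 (SE 0.38, adjusted p = 0.00204). 1110020G09Rik had 832, 926, 344 and 432 CPM in the HF mice and 232, 157, 298 and 188 CPM in the HFW mice, with -1.54 (SE 0.36, adjusted p = 0.00639). Both groups of values were apart for each.

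Among transcription factors, Creb3l3, an ER-anchored factor that drives triglyceride-clearing genes when released, rose from 1689 ± 561 CPM in HF to 3231 ± 1115 CPM in HFW (0.93, SE 0.29, adjusted p = 0.0341). Its groups overlapped, and the call ended without HF mice 23 or 25 or HFW mice 36, 38 or 40 (0.73 to 1.02, adjusted p 0.0523 to 0.134). Of the 6 tested liver transcription factors 2 were called, 1 in each direction. Hnf4a, a nuclear receptor of hepatocytes on that list, had 0.42 (SE 0.31, adjusted p = 0.377), and Nr1d1, a repressor of the clock, -0.53 (SE 0.32, adjusted p = 0.29), and neither passed.

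Marker genes of other liver cells that could be tested were not called. Of 11 tested hepatocyte markers 0 were called, with a median of 0.42. Mpeg1, a macrophage gene, had 232, 194, 139 and 67.8 CPM in the HF mice and 92.8, 52.4, 55.9 and 18.8 CPM in the HFW mice. HFW mouse 34 lay above HF mouse 29, and -1.53 (SE 0.52, adjusted p = 0.0538) missed the threshold, which it passed with no filter, without HF mouse 29 and without HFW mouse 34 (-1.75 to -2.02, adjusted p 0.0273 to 0.0352). C1qc, a complement gene of macrophages, had -0.24 (SE 0.37, adjusted p = 0.706). Oit3, a gene of liver sinusoidal endothelium, had 526, 707, 557 and 610.3 CPM in the HF mice and 371, 332, 391 and 357 CPM in the HFW mice, all HFW mice below all HF mice, at -0.73 (SE 0.31, adjusted p = 0.118). Kdr, another endothelial gene, had 0.43 (SE 0.29, adjusted p = 0.332), the opposite sign. Of 4 tested stellate cell and matrix genes 0 were called, and Col1a1, a chain of type I collagen, had 10.5, 106, 418 and 50.9 CPM in the HF mice and 673, 52.4, 298 and 141 CPM in the HFW mice, so that its ranges overlapped widely. It passed without HF mouse 28 (2.22, adjusted p = 0.0377).

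The extract was also fed on the normal diet, in mice that share no library with HF and HFW. There, 115 of the 1046 genes passed between NW and N (11.0%), 38 higher (3.63%) and 77 lower (7.36%), in the same edgeR fit. Of the 103 genes of the high-fat comparison, 48 passed on both diets, which is 46.6% of the 103 and 41.7% of the 115, and all 48 had the same sign, 15 higher and 33 lower. Over the 103, 102 had the same sign on both diets. The share with the same sign over all 1046 genes was not counted. The exception, Dpp3, a dipeptidyl peptidase, had 1.11 (SE 0.35, adjusted p = 0.0419) on the high-fat and -0.02 (SE 0.35) on the normal diet, and its call on the high-fat diet ended without HF mice 23 or 25 or HFW mice 36, 38 or 40 (0.89 to 1.11, adjusted p 0.0782 to 0.166). The median NW minus N value was 0.87 among the 44 that rose in HFW and -1.35 among the 59 that fell. Kdelr1 had a log2 fold change of -1.97 (SE 0.37) on the normal diet, Igfals -1.91 (SE 0.33), Sephs2 -2.00 (SE 0.39), Lcat -1.84 (SE 0.34), Dus1l 1.68 (SE 0.31), Trfr2 0.91 (SE 0.26) and Acox2 1.31 (SE 0.34). For 50 of the 103 genes the values on the 2 diets lay within 1 SE (that of the high-fat diet) of each other, Kdelr1, Igfals, Sephs2, Lcat, Dus1l and Acox2 among them, and for 53 they did not, Trfr2 among them. This SE leaves out the spread on the normal diet, so the 53 are not genes shown to differ by diet. For Trfr2 the difference between the diets was 0.36 with an SE of its own of 0.37.

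**Figure D5:**
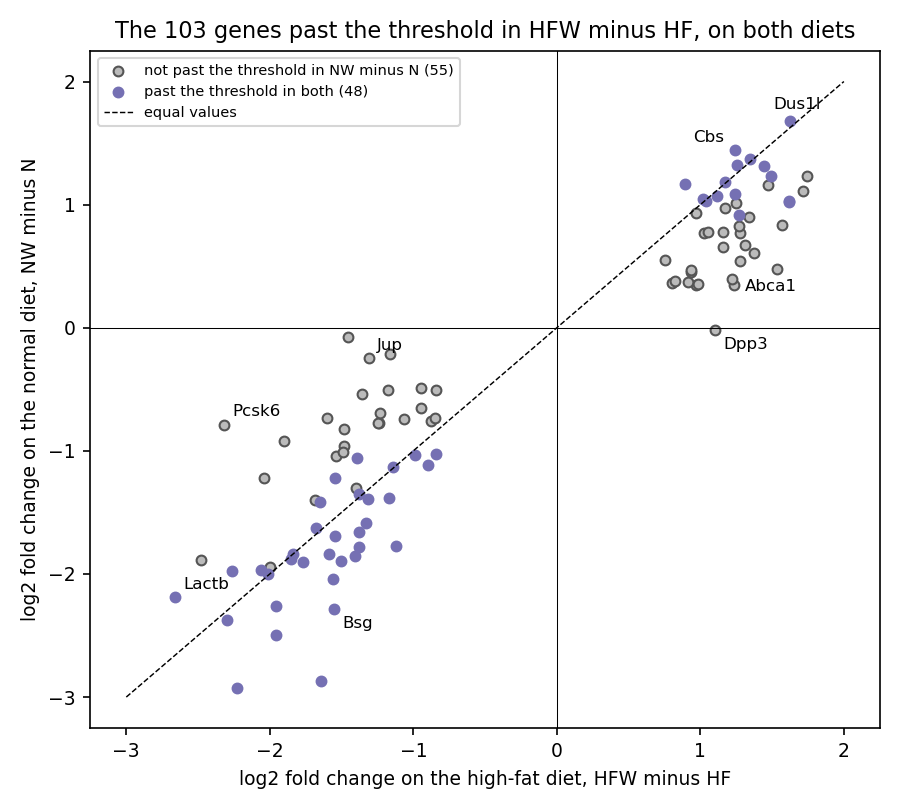
Each point is 1 of the 103 genes that passed between HFW and HF, with that log2 fold change on the x axis and the NW minus N value on the y axis, and the dashed line marks equal values. The 48 genes that passed on both diets lie at the lower left and the upper right, and Dpp3 is the 1 gene of opposite sign.

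Whether the extract's difference depended on the diet was tested as an interaction, the value on the high-fat diet less that on the normal diet. It was past the threshold for 0 of the 1046 genes (0.0%) in the edgeR test, whose smallest adjusted p was 0.998, and for 0 with the DESeq2 Wald test. At an unadjusted p under 0.05 there were 26 genes (2.49%). The smallest p belonged to St3gal5, a ganglioside synthase, which had -0.76 (SE 0.41) on the high-fat and 1.45 (SE 0.45) on the normal diet (interaction -2.21, SE 0.61, adjusted p = 0.998). The others with the smallest p below 0 were Pqlc1 (interaction -1.28), Strbp (-1.62), Ralgapb (-1.34) and Zbtb16 (-2.25), and those above 0 were Anapc5 (0.94), Dsp (1.04), Ldha (1.12), Pvrl3 (1.56) and Dpp3 (1.13). Pcsk6, which passed on the high-fat diet, had -0.79 (SE 0.61) on the normal diet. Its interaction of -1.53 (SE 0.80, adjusted p = 0.998) was not past the threshold, nor was that of Jup, which had -0.25 (SE 0.34) on the normal diet (interaction -1.06, SE 0.48, adjusted p = 0.998).

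Among the 15 genes that reached 1% of the tags of an HF or HFW library, 2 were called, where 9.85% of all genes tested were. Gc rose and Fam134a fell, as given above, and 13 were not called. Apoa2, an apolipoprotein of high-density lipoprotein, had 44806 ± 4151 CPM in HF and 55957 ± 14032 CPM in HFW, and Cdo1, which oxidises cysteine, 13221 ± 3566 CPM in HF and 17386 ± 4993 CPM in HFW. The groups of each overlapped. Gcdh, glutaryl-CoA dehydrogenase of lysine breakdown, had 7906, 9375, 5208 and 6493 CPM in the HF mice and 3144, 5539, 3894 and 4378 CPM in the HFW mice. HFW mouse 36 lay above HF mouse 28, and -0.77 (SE 0.26, adjusted p = 0.0518) was just short of the threshold. It passed with DESeq2 size factors, with no filter, with the filter of 20 counts, with the DESeq2 Wald test, with limma-voom, without HF mouse 28 and without HFW mouse 36 (-0.77 to -1.02, adjusted p 0.0104 to 0.0439).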

How the data were processed

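Per the file headers, the authors deposited raw counts of tags by RefSeq transcript for 16 livers, 1 column a mouse. For tag matching, genome build and batches no statement was found in the sources used, and the labels name no molecular identifiers. The SE and p of each gene come from a fit whose dispersion was estimated across mice, so they include the spread between mice. Of 26782 rows, 416 without a symbol (0.0729% of tags) were left out, 40 of 41 symbols that had become dates were restored, and counts were summed per symbol. R 4.3.3 with edgeR 4.0.16 was used: TMM normalisation, the default expression filter by group (minimum count 10; 1046 of 10171 genes with a tag), a robust quasi-likelihood fit of 16 libraries with 4 group means, and Benjamini-Hochberg adjustment over all genes tested at 0.05. The SE was obtained as the fold change (log2) over the root of F. CPM are tags per 1000000 of normalised library size. Before normalisation 1 tag was worth 6.70 to 17.7 tags per 1000000, by library. The 8 libraries were checked for duplicates (chi-square per degree of freedom 3.83 to 12.4), and the fit was tested on simulated counts.

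Settings also tried were size factors of DESeq2, every gene with a tag, a filter of 20 counts in 4 or more libraries, DESeq2 1.42.0 (Wald test), limma 3.58.1 with voom, the 8 libraries alone, the top transcript per gene, thinning, and leaving out each mouse. Genes with a call could be named, as could up to 4 of each list, the interaction's 5 smallest p each way and genes at 1% of a library. The 12 each way with the smallest p were to get values by mouse, and some other genes got them too. A few genes that this rule takes are not reported here, though counts over all genes and lists hold them. The comparison's members and the 37 gene lists were chosen with earlier results of these data known. Means are given ± SD, n = 4.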

Additional observations from a re-analysis of the deposited data

Results flagged for a closer look

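In 10 of 202 sets of 4 values checked (4.95%, where chance gives about 1 in 20), 1 mouse stood far from the other 3 of its group. HFW mouse 40 was that mouse 4 times. It was high for Dus1l (676 CPM, the others 472 to 487) and Acly (329, others 139.8 to 162), and low for Eef1b2 (272, others 419 to 447) and Ebpl (469.7, others 647 to 652). HFW mouse 34 was high for Herpud1 (939.8 CPM, others 454 to 526) and low for Apoa2 (35062, others 61240.5 to 65230.3). HFW mouse 36 was low for Ltbr (209.7 CPM, others 335 to 348), and HFW mouse 38 was high for Pcsk6 (149 CPM, others 69.6 to 75.2). In the HF group, mouse 25 was high for Fh1 (275 CPM, others 180.2 to 189) and mouse 29 for Dgat2 (14953 CPM, others 8433 to 9099).

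Most genes named in this report, but not all genes tested, were checked for mice on opposite sides on the 2 diets. For 3 of them every HFW mouse lay on 1 side of the HF mean and every NW mouse on the opposite side of the N mean. These were St3gal5 (interaction -2.21 on the log2 scale), Strbp (-1.62) and Dsp (1.04). All 3 had been named for their small interaction p, so their turning up here is no separate support. The edgeR test of that difference gave an adjusted p of 0.998 for each, so none was past the threshold.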

How the results depend on the processing

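No paired analysis was possible because the groups have no mouse number in common. Depth limited the comparison to 1046 of 10171 genes with a tag. The number of genes with a tag was lower in HFW by a mean of 609 (-609), and turned to 136 more in HFW after thinning to 56655 tags (exact permutation p adjusted 0.229 and 0.257). The count of 103 genes lay between 84 (thinned, 780 genes tested) and 111 (8 libraries alone) in the settings that left out no mouse: 106 with DESeq2 size factors (40 higher, 66 lower), 106 with no filter (11 and 95), 93 with at least 20 counts (683 genes tested), 109 with the DESeq2 Wald test, 104 with limma-voom and 102 with the top transcript. Leaving out 1 mouse gave 40 to 150 genes. It was 51 without HF mouse 23, 40 without HF mouse 25, 59 without HFW mouse 38 and 65 without HFW mouse 40. With no filter the median fold change of the tested genes moved by -0.22 (log2), and with DESeq2 size factors by -0.04. The medians of the lists of lipid droplets (0.12 to -0.12), phase II enzymes (0.02 to -0.24), mitochondrial translation (0.03 to -0.18), complement and coagulation (0.23 to -0.0047), liver transcription factors (0.21 to -0.03) and stellate cell markers (0.11 to -0.08) turned sign with no filter, and those of phase II enzymes (-0.02) and mitochondrial translation (-0.01) also with DESeq2 size factors. Gpx4, at 0.24, turned to -0.0116 with no filter. The interaction was past the threshold for 0 genes in every setting run, the omission of each of the 16 mice included, with 13 to 55 genes at an unadjusted p under 0.05 when a mouse was left out.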

Other observations

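Some called genes belong to no list above, among them 2 zinc transporters and 2 enzymes of ER glycosylation, chosen after their values were seen. Slc39a14, of the same transporter family, was not called, as given with the iron list, nor were Dad1 and Rpn1, subunits of the ER enzyme that transfers the N-linked sugar chain, with log2 fold changes of -0.40 (SE 0.24, adjusted p = 0.274) and 0.37 (SE 0.30, adjusted p = 0.433) by edgeR. Slc39a7, a zinc transporter of the ER and Golgi membranes, had 52.6, 87.6, 139 and 93.2 CPM in the HF mice and 186, 209.7, 242 and 225 CPM in the HFW mice. Every HFW mouse was above every HF mouse, with a log2 fold change of 1.18 (SE 0.34, adjusted p = 0.024) by edgeR, and the call ended without HF mice 23 or 25 or HFW mice 38 or 40 (1.00 to 1.14, adjusted p 0.0752 to 0.1). Slc39a1, a zinc importer of the cell surface, had 316, 338, 409 and 339 CPM in the HF mice and 638, 594, 652 and 573 CPM in the HFW mice. Its groups did not overlap, with 0.80 (SE 0.25, adjusted p = 0.0349), and the call ended without HF mice 23, 25 or 29 or HFW mice 34, 36, 38 or 40 (0.75 to 0.80, adjusted p 0.0581 to 0.106). Both calls ended with no filter as well. On the normal diet the 2 genes had NW minus N values of 1.18 (SE 0.34) and 0.36 (SE 0.25).

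Alg10b, a glucosyltransferase that completes the sugar chain for N-glycosylation, fell from 303 ± 109 CPM in HF to 125 ± 36.6 CPM in HFW (-1.31 (SE 0.37, adjusted p = 0.0189), edgeR). HF mouse 28 lay within the HFW range, and the call ended without HF mice 23 or 25 or HFW mouse 40 (-1.14 to -1.26, adjusted p 0.0593 to 0.102) and on thinning. Pomt2, which starts O-mannosylation of proteins in the ER, fell from 178 ± 59.1 CPM in HF to 66.7 ± 34.5 CPM in HFW (-1.40 (SE 0.43, adjusted p = 0.0305), edgeR). Its groups narrowly did not overlap, and the call ended without HF mice 23 or 25 or HFW mice 38 or 40 (-1.18 to -1.30, adjusted p 0.0944 to 0.139). No HFW or NW library held more than 9 Pomt2 tags, so it was tested only through libraries without the extract. The gap between its groups is therefore no separate support. Pomt2 had too few tags to be tested on thinning or with a filter of 20 counts. On the normal diet Alg10b had -1.39 (SE 0.42) and Pomt2 -1.30 (SE 0.55). Map2k4, a kinase upstream of JNK, fell from 619 ± 270.0 CPM in HF to 214 ± 90.9 CPM in HFW (-1.48 (SE 0.36, adjusted p = 0.00911), edgeR), and its call ended without HF mouse 25 (-1.19, adjusted p = 0.0654).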
